A study of Mus musculus with 2 samples.

Results

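Angiogenic factors made by tumor myeloid cells were followed as 5 genes, namely Vegfa, Pgf, Prok2, Lrg1 and Thbs1. They were taken by gene symbol, and all 5 were found among the 32285 genes listed in both single-cell RNA-seq libraries. Each library held GR1+ cells taken by magnetic positive selection from orthotopic 4T1 breast carcinomas of BALB/c mice labelled as 6 to 8 weeks old, with the tumors of 5 mice pooled into 1 library by the series record, a number on which the sources differ. The Non-responding tumors came from the parental 4T1 line (4T1P), which is resistant to anti-PD1 treatment, and the Responding tumors from 4T1M, a multiclonal population of the same line mutagenized with MNNG and responsive to anti-PD1. Since each condition is 1 pooled library, differences between mice, sorts and library preparation cannot be told apart from the tumor line, and no test between the conditions was possible. All intervals given are 95% intervals and cover counting error only. Those of levels and ratios treat each UMI as independent and may be too narrow where the UMIs of a gene lie in few cells.

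VEGF-A, the product of Vegfa, binds VEGF receptors on endothelial cells and is the main driver of new vessel growth under low oxygen. Placental growth factor, encoded by Pgf, is a VEGF family member that binds VEGFR1. Prokineticin 2 (Prok2, also called Bv8) is a secreted peptide of neutrophils and other myeloid cells that promotes angiogenesis and myeloid cell mobilization, and Lrg1 encodes a secreted leucine-rich glycoprotein of neutrophil granules that promotes angiogenesis through TGF-beta signaling in endothelial cells. Thrombospondin-1 (Thbs1) is a matrix glycoprotein that restrains angiogenesis through its receptors CD36 and CD47.

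On the mouse assembly GRCm38 with GENCODE vM21 annotation, all 5 are protein-coding genes. Vegfa (ENSMUSG00000023951) lies at chr17:46016993-46032369 on the minus strand, Lrg1 (ENSMUSG00000037095) at chr17:56119678-56122001 on the minus strand, Pgf (ENSMUSG00000004791) at chr12:85166635-85177790 on the minus strand, Prok2 (ENSMUSG00000030069) at chr6:99711299-99726392 on the minus strand and Thbs1 (ENSMUSG00000040152) at chr2:118111876-118127133 on the plus strand. An antisense gene, Gm26748, overlaps Prok2 and had 29 UMIs over both libraries, and a lincRNA on the opposite strand of Thbs1, Gm29233, had 0.

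Because levels were followed along a hypoxia score, the RefSeq promoters (GRCm38.p6) of Prok2 and Vegfa are shown as the 250 bases before the start site, at chr6:99726393-99726642 and chr17:46032378-46032627, both on the minus strand and written 5′ to 3′. Capitals mark ACGTG and GCGTG on either strand, the core letters recognized by hypoxia-inducible factors.
Prok2: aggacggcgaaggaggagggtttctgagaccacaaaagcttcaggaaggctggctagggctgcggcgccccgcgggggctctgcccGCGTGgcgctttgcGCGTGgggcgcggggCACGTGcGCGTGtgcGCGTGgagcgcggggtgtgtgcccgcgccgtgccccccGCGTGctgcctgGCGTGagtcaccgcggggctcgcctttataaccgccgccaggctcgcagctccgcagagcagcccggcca
Vegfa: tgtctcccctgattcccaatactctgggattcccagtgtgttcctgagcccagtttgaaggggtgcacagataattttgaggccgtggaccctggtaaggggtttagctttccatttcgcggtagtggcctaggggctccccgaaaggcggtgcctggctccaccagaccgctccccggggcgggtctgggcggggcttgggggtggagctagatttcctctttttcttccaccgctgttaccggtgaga
The Prok2 window held 2 matches of ACGTG, which are the 2 strands of a single palindromic CACGTG and so overlap each other, and 6 of GCGTG. Among 32851 RefSeq promoter windows of the same length, 16.6% held ACGTG, 28.2% held GCGTG, 38.6% held either and 0.0822% had at least 8 matches. These windows were not matched to that of Prok2 for base composition, so the last share is not read as an enrichment. The Vegfa window shown held none of these letters, which says only that they do not occur in it. A second RefSeq window of Vegfa, inside the gene at chr17:46025164-46025413, held 1 match of each motif, 1 of 2 Pgf windows held 1 match of GCGTG and the Lrg1 window 1 of ACGTG.

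Of 7951 barcodes, 5187 were retained (1726 in 4T1P and 3461 in 4T1M) because they showed between 500 and 5000 genes and no more than 10% of UMIs from mitochondrial genes. Only 5 barcodes occurred in both libraries. Cells with at least 1.5% of their UMIs from S100a8 and S100a9 and under 0.5% from C1qa, C1qb, C1qc and Apoe were taken as neutrophils, 612 in 4T1P and 1686 in 4T1M, with 2502947 and 6580005 UMIs. Cells under 1.5% S100a8 and S100a9 with at least 0.3% from the C1q genes, Apoe, Csf1r, Cd68 and Fn1 were taken as macrophages, 798 and 976, with 8767210 and 9343315 UMIs. Monocytes were not gated apart from them. The 8 neutrophil markers that the gates did not use (Csf3r, Retnlg and G0s2 among them) summed to 16876 CPM in 4T1P neutrophils and 13880 CPM in 4T1M neutrophils, against 229 and 333 CPM in macrophages. The 8 macrophage markers summed to 5318 and 4662 CPM in macrophages and to 3199 and 3149 CPM in neutrophils, but Cd14 alone made 3084 and 2979 CPM of the neutrophil sum. Epithelial markers summed to 70.3 CPM in 4T1P neutrophils and 12.9 CPM in 4T1M neutrophils. Over both classes and libraries, lymphoid markers summed to 7.53 to 38.4 CPM, endothelial markers to 20.8 to 42.4 CPM, mostly Pecam1, dendritic cell markers to 0.608 to 15.6 CPM and fibroblast markers to 1.18 to 4.79 CPM.

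Of the 5 genes, Prok2 and Lrg1 were higher in neutrophils, and Vegfa, Pgf and Thbs1 were higher in macrophages, in both libraries. Levels are CPM, the UMIs of a gene summed over a class and scaled to 1e+06 UMIs of that class. Vegfa was found at 161 CPM (146 to 178) in 4T1P neutrophils and 176 CPM (166 to 187) in 4T1M neutrophils, and at 437 CPM (424 to 451) and 365 CPM (353 to 378) in the corresponding macrophages. Pgf was low in neutrophils, at 1.998 and 2.89 CPM resting on 5 and 19 UMIs. In macrophages it stood at 25.5 CPM (22.3 to 29.1) in 4T1P and 27.5 CPM (24.2 to 31.1) in 4T1M. Cells of neither class had Pgf at 20.3 CPM (14.0 to 28.3) and 26.6 CPM (21.4 to 32.7), which overlapped the macrophage levels. Both VEGF family ligands were thus higher per UMI in macrophages than in neutrophils of either library.

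Prok2 showed the opposite distribution, with 655 CPM (624 to 687) in 4T1P neutrophils and 576 CPM (558 to 595) in 4T1M neutrophils against 3.54 CPM (2.40 to 5.02) and 9.95 CPM (8.03 to 12.2) in macrophages. Lrg1 was found at 762 CPM (728 to 796) and 607 CPM (588 to 626) in neutrophils and at 31.9 CPM (28.3 to 35.9) and 16.3 CPM (13.8 to 19.1) in macrophages. The angiostatic factor Thbs1 was again higher in macrophages than in neutrophils, at 250 CPM (240 to 261) in 4T1P and 132 CPM (125 to 139) in 4T1M macrophages against 23.6 CPM (17.9 to 30.4) and 14.9 CPM (12.1 to 18.2) in neutrophils. Cells of neither class had Thbs1 at 195 CPM (174 to 217) in 4T1P and 130 CPM (118 to 143) in 4T1M. The 4T1M level overlapped that of 4T1M macrophages. Within each library the counting intervals of neutrophils and macrophages did not overlap for any gene followed here. How common this was among all genes was not counted, so it is not read as a trait of these genes.

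**Figure D1:**
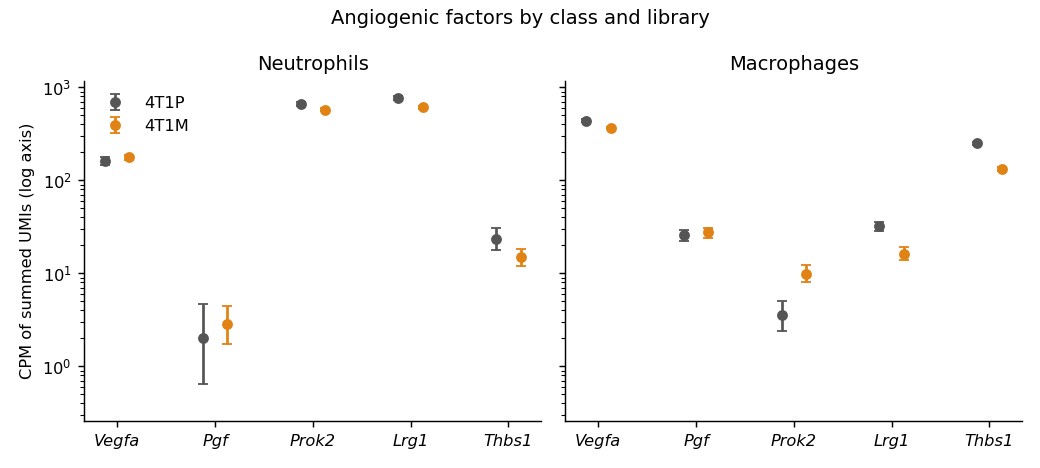
CPM of UMIs summed over neutrophils (left) and macrophages (right) on a log axis, in 4T1P (grey) and 4T1M (orange); points are single libraries and bars 95% Poisson intervals of the count. Prok2 and Lrg1 lie between 576 and 762 CPM in neutrophils and under 32 CPM in macrophages, while Vegfa, Pgf and Thbs1 are higher in macrophages.

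The ratio of neutrophils to macrophages on the log2 scale was 7.53 (7.02 to 8.10) in 4T1P and 5.85 (5.56 to 6.17) in 4T1M for Prok2, the 23rd and 25th highest of the 7414 and 7924 genes with at least 100 UMIs. For Lrg1 it was 4.58 (4.39 to 4.76) and 5.22 (4.99 to 5.46), the 60th and 48th highest. Both genes passed 2-fold toward neutrophils in each library, where 9.99% of all genes in 4T1P and 11.1% in 4T1M did so. Pgf at -3.68 (-5.31 to -2.43) and -3.25 (-4.01 to -2.58), Thbs1 at -3.41 (-3.81 to -3.04) and -3.15 (-3.46 to -2.85) and Vegfa at -1.44 (-1.59 to -1.29) and -1.05 (-1.15 to -0.95) passed 2-fold toward macrophages. That direction was the common one, taken by 51.6% of genes in 4T1P and 47.9% in 4T1M, and the Vegfa ratio was close to the median of all genes, -1.08 and -0.92. The Thbs1 ratio in 4T1M shrank to -1.34 under stricter class gates, still toward macrophages, and the Vegfa ratio in 4T1M was -0.98, just under 2-fold, without the upper limit on genes.

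Shares of UMIs by class depend on the GR1 selection and on the class sizes, and do not describe whole tumors. Over the retained cells of each library, macrophages held 82.3% of the Vegfa UMIs in 4T1P and 62.7% in 4T1M, and neutrophils 8.67% and 21.3%. For comparison, macrophages held 67.7% and 48.4% of all UMIs and neutrophils 19.3% and 34.1%. Neutrophils held 91.3% and 85.1% of the Prok2 UMIs and 82.2% and 89.7% of the Lrg1 UMIs. Macrophages held 85.2% and 70.2% of the Pgf UMIs and 85.0% and 69.6% of the Thbs1 UMIs. The remaining UMIs belonged to cells of neither class, which contributed from 5.78% (Lrg1 in 4T1P) to 24.9% (Thbs1 in 4T1M).

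After thinning every cell to 1000 UMIs, 25.5% (22.5 to 28.7) of 4T1P macrophages and 21.1% (18.5 to 23.8) of 4T1M macrophages had a Vegfa UMI, against 13.9% (11.2 to 16.9) and 14.1% (12.5 to 15.9) of neutrophils. Without thinning the shares were 55.0% and 55.9% of macrophages and 30.2% and 31.0% of neutrophils, whose median depths were 9727, 9214, 3055 and 2958 UMIs. A Prok2 UMI was present in 26.3% (22.9 to 29.99) and 25.4% (23.3 to 27.5) of thinned neutrophils and an Lrg1 UMI in 34.2% (30.4 to 38.1) and 29.4% (27.3 to 31.7). Thbs1 was concentrated in few cells, with a UMI in 9.84% (7.83 to 12.2) of 4T1P and 5.86% (4.44 to 7.56) of 4T1M thinned macrophages and as many as 178 and 131 UMIs in 1 unthinned cell. A Pgf UMI was present in 1.68% (0.8996 to 2.86) and 2.77% (1.82 to 4.03) of thinned macrophages. Before thinning, 242 of 612 and 706 of 1686 neutrophils (39.5% and 41.9%) had a Prok2 UMI, and 328 and 812 (53.6% and 48.2%) an Lrg1 UMI.

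Cells carrying T, NK or B cell markers served as the measure of background RNA. They were taken only from cells of neither class under the S100a8 and S100a9 limit. Cells of these lineages with enough neutrophil or macrophage RNA to pass a class limit were thus left out, so background may be read too low. There were 105 lymphoid-marker cells in 4T1P (median 4863 UMIs) and 126 in 4T1M (median 5659 UMIs). Of these, 0 had a Prok2, Thbs1 or Lrg1 UMI, which allows thinned shares of up to 3.45% and 2.91%. Vegfa stood at 34.7 CPM (22.0 to 52.1) and 22.7 CPM (13.4 to 35.9) in them, with a UMI in 1.90% and 1.60% after thinning, and Pgf at 0 and 17 UMIs, the latter all in 1 cell. The thinned macrophage shares of Pgf, Prok2 and Lrg1 were below these share limits and are not read as expression. By summed level, a count of 0 allows up to 5.57 CPM in 4T1P and 4.65 CPM in 4T1M. Lrg1 in macrophages of both libraries, Pgf in those of 4T1P and Prok2 in those of 4T1M lay above this limit, and Prok2 in those of 4T1P did not. Given how the lymphoid-marker cells were selected, whether levels above this limit exceed the background RNA of macrophages was not tested. In 4T1M the Pgf level of lymphoid-marker cells, 21.4 CPM (12.5 to 34.3), overlapped that of macrophages. In macrophages Prok2 reached 0.540% and 1.73% of its neutrophil level and Lrg1 4.19% and 2.68%, where the 8 neutrophil markers had medians of 1.04% (range 0.111 to 14.5) and 2.22% (range 0.559 to 11.7). In neutrophils Thbs1 reached 9.42% and 11.3% of its macrophage level, Pgf 7.82% and 10.5% and Vegfa 36.9% and 48.3%. The 8 macrophage markers had medians of 2.70% (range 1.20 to 240) and 4.63% (range 1.65 to 229) there, with Cd14 at the top of both ranges. Prok2 in macrophages thus lay below the median of the neutrophil markers and Lrg1 above it, in both libraries. Both genes lay inside the range of these markers, but that range is wide. It does not tell where the Prok2 and Lrg1 UMIs of macrophages came from, which was not tested.

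The next comparison asked how the factors of each class differed between the Non-responding and the Responding tumors. In neutrophils, Vegfa differed by less than its counting error, with a log2 ratio of 4T1M over 4T1P of 0.13 (-0.04 to 0.30). The Prok2 ratio was -0.19 (-0.27 to -0.10) and the Lrg1 ratio -0.33 (-0.41 to -0.25), both smaller than 1.5-fold. Thbs1 was at -0.66 (-1.14 to -0.17), from 59 and 98 UMIs, and was the member past 1.5-fold, as 1.8% of 4953 genes were in that direction and 7.51% in the other. These UMIs lay in 19 of 612 and 37 of 1686 cells, with up to 9 and 13 in a single cell, so the interval may be too narrow. With cells from 0.5% S100a8 and S100a9 also counted as neutrophils the Thbs1 ratio was -0.07, and without the deepest 5% of cells it was -0.51 (-1.25 to 0.27), so that under both alternatives it was no longer past 1.5-fold. Pgf, with 5 and 19 UMIs, gave 0.53 (-0.94 to 2.31) and was below the minimum for the comparison. The median of all genes was 0.04.

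In macrophages, 2 members passed 1.5-fold toward lower levels in 4T1M, Thbs1 at -0.93 (-1.03 to -0.82) and Lrg1 at -0.97 (-1.27 to -0.68), where 2.93% of 8571 genes did so. They were the 76th and 61st lowest of these genes. Prok2 passed it toward higher levels at 1.49 (0.89 to 2.13), from 31 and 93 UMIs, where 3.29% of genes did so. The Prok2 UMIs lay in 18 of 798 and 40 of 976 cells, with up to 7 and 10 in a single cell, so this interval too may be too narrow. Vegfa was at -0.26 (-0.33 to -0.19) and Pgf at 0.11 (-0.16 to 0.37), and the median of all genes was -0.03. With a mitochondrial limit of 5%, Lrg1 was at -0.54 and no longer past 1.5-fold, while Pgf at 0.60 (0.24 to 0.96) was. Under stricter gates, which kept 579 and 659 macrophages, Thbs1 stood at 195 and 29.0 CPM and its ratio was -2.75, in the same direction and larger, whereas the Pgf ratio changed sign to -0.26.

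**Figure D2:**
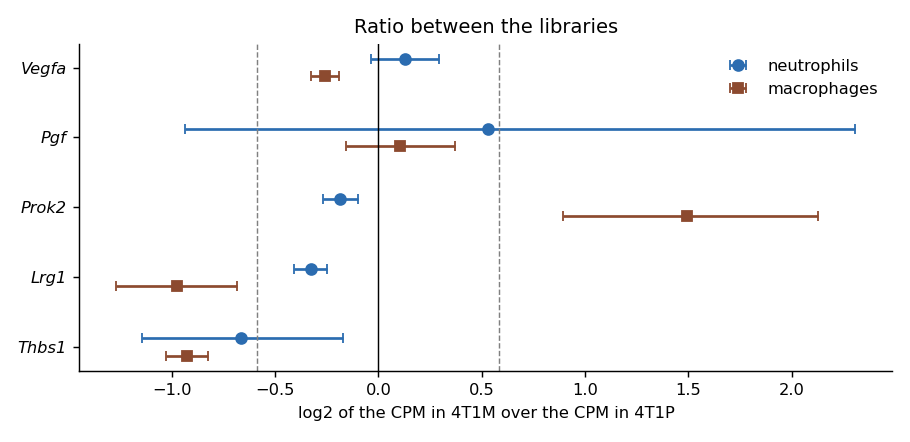
Log2 ratio of the CPM in 4T1M over the CPM in 4T1P for each gene in neutrophils (circles) and macrophages (squares), with 95% intervals of the 2 counts; dashed lines mark 1.5-fold. Thbs1 and Lrg1 lie beyond the lower line in macrophages and Prok2 beyond the upper one, while Vegfa lies between the lines in both classes.

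Several neutrophil markers also differed between the macrophages of the libraries. Of 6 neutrophil markers with at least 100 UMIs in macrophages, 4 were past 1.5-fold higher in 4T1M and 1 lower. Of all genes, 3.29% were higher and 2.93% lower. Csf3r, the G-CSF receptor, stood at 30.2 and 55.1 CPM and G0s2 at 40.5 and 82.1 CPM. Lrg1, like Prok2 higher in neutrophils, went the other way in macrophages, at a log2 ratio of -0.97. Mmp9 was the lower one, at 55.8 and 16.9 CPM. None of the 8 neutrophil markers was at 0 in the macrophages of either library. A macrophage cluster with neutrophil genes among its leading genes (cluster 7, Cstdc4, Il1f9, Chil1) grew from 8 cells (1.003% of the class) to 51 (5.23%) and held 3 of the 31 and 40 of the 93 Prok2 UMIs. Cluster 2 (Cxcl13, Dnase1l3, Tlr12), which grew from 14.7% to 32.0% of the class, held 0 and 38 of them, and cluster 4 (Lyve1, Vsig4, Cd163) 14 and 2. Without cluster 7, Prok2 stood at 3.21 CPM (2.13 to 4.64) and 5.89 CPM (4.42 to 7.71) and its log2 ratio was 0.88 (0.19 to 1.59). Without cluster 4 instead, the Prok2 ratio was 2.02 (1.26 to 2.86). What share of the macrophage Prok2 UMIs came from neutrophil RNA, in cluster 7 or elsewhere, was not tested.

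Clusters were then formed within each class with the 5 genes left out of the clustering features, which gave 7 per class in both libraries together. Each is called by number and by its 3 leading genes. Since other genes of the same cells formed the clusters, their levels are a description. In neutrophils, Vegfa was highest in cluster 1 (Adm, Abhd10, Rragd), at 347 CPM (298 to 402) in 4T1P and 363 CPM (332 to 397) in 4T1M, and this cluster made up 26.6% and 27.3% of the class and held 44.3% and 42.3% of its Vegfa UMIs. Adm encodes adrenomedullin, a hypoxia-induced peptide. Cluster 4 (Ggt1, Pi16, Retnlg) and cluster 6 (Camp, Fcnb, Ltf) were among the lowest, at 68.2 and 55.5 CPM and at 25.9 and 57.7 CPM. Camp and Ltf encode granule proteins of immature neutrophils.

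Lrg1 was ordered nearly in reverse. It stood at 1417 CPM and 1223 CPM in cluster 6 and 1299.8 CPM and 1351 CPM in cluster 4, and was lowest in cluster 1 at 143 CPM (113 to 180) and 77.0 CPM (62.9 to 93.3). Over the 12 groups of 1 cluster in 1 library with at least 30 cells, Pearson's r between log2 CPM of Vegfa and Lrg1 was -0.91. These groups share libraries and clusters defined on both, so r is a description. Prok2 was high in clusters that differed in Vegfa and Lrg1, at 947 and 771 CPM in cluster 1 and 931 and 968 CPM in cluster 4, and its r with Vegfa was 0.12 and with Lrg1 -0.12.

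The lower Prok2 level of 4T1M neutrophils as a whole hid unequal ratios by cluster. In cluster 2 (Hba-a1, Hbb-bs, Hba-a2) Prok2 stood at 126 CPM and 344 CPM, a log2 ratio of 1.44 (1.02 to 1.90), and in cluster 3 (Ifit2, Ifit3, Cmpk2), led by interferon-induced genes, at 239 CPM and 439 CPM, a ratio of 0.88 (0.45 to 1.34). In clusters 1 and 6 the ratio was -0.30 (-0.45 to -0.14) and -0.56 (-0.81 to -0.31). Cluster 3 was 7.35% of 4T1P and 19.99% of 4T1M neutrophils. Its Lrg1 levels, 518 and 516 CPM, were alike within counting error, with a log2 ratio of 0.00 (-0.30 to 0.31).

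In macrophages, Thbs1 was concentrated in cluster 3 (Sema3c, Ramp3, Inhba), at 854 CPM (814 to 897) in 4T1P and 526 CPM (493 to 561) in 4T1M. Ly6c1, Ly6c2 and Vcan were also among its leading genes. The paper used Ly6c as a monocytic marker, and whether these cells are monocytes or macrophages was not tested. The cluster was 16.0% and 17.2% of macrophages and held 75.7% of the Thbs1 UMIs of the class in both. Within it the log2 ratio of 4T1M over 4T1P was -0.70 (-0.82 to -0.58), and it was below 0 in clusters 1 to 5, but 0.58 (-1.29 to 2.58) in cluster 6 and 3.402 (0.88 to 8.72) in cluster 7, the latter from 1 and 76 UMIs. Cluster 3 also had high Vegfa, 754 and 501 CPM, at a ratio of -0.59 (-0.71 to -0.47). Pgf was at 24.7 and 61.4 CPM there, a ratio of 1.32 (0.81 to 1.84), and at 81.2 and 51.7 CPM in cluster 5 (Ctsk, Atp6v0d2, Adm), a ratio of -0.65 (-1.13 to -0.19). Pgf levels were alike in macrophages as a whole while these clusters had opposite ratios. With coarser clusters (Leiden resolution 0.3), the one led by Sema3c, Plpp3 and Inhba also had Ctsk among its leading genes. Its Pgf stood at 49.4 CPM (42.1 to 57.6) and 61.3 CPM (52.3 to 71.4), so the opposition depends on the clustering. The Pgf UMIs of macrophages lay in 72 and 97 cells, with up to 27 and 16 in a single cell. Cluster 5 had Vegfa at 585 and 464 CPM.

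Lrg1 of 4T1P macrophages was highest in cluster 4 (Lyve1, Vsig4, Cd163), at 84.1 CPM (72.3 to 97.2). Of these leading genes, Cd163 encodes a scavenger receptor. In 4T1M, Lrg1 stood at 68.7 CPM (50.1 to 91.9) in cluster 4 and at 79.7 CPM in cluster 7, the latter from 28 UMIs. Cluster 4 was 20.1% of 4T1P and 6.66% of 4T1M macrophages and held 65.4% and 29.6% of the Lrg1 UMIs of the class. Within it the log2 ratio was -0.29 (-0.80 to 0.19), and without it Lrg1 in macrophages stood at 14.7 and 12.3 CPM, a ratio of -0.26 (-0.67 to 0.15). With the coarser clusters, Lrg1 was at 15.5 and 9.68 CPM in the one led by Cxcl13 and at 20.4 and 12.3 CPM in that led by Sema3c. The one led by Lyve1 had 253 and 183 CPM. Those led by Pbk, at 13.5 and 17.5 CPM, and by Cstdc4, at 61.4 and 79.7 CPM, went the other way. Whether the smaller share of cluster 4 accounts for the lower macrophage Lrg1 of 4T1M was not tested. Cluster 1 (Lyz1, Igkc, Rnase2a) had little RNA, at medians of 1777 and 1597 UMIs, and Vegfa at 160 and 88.0 CPM.

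**Figure D3:**
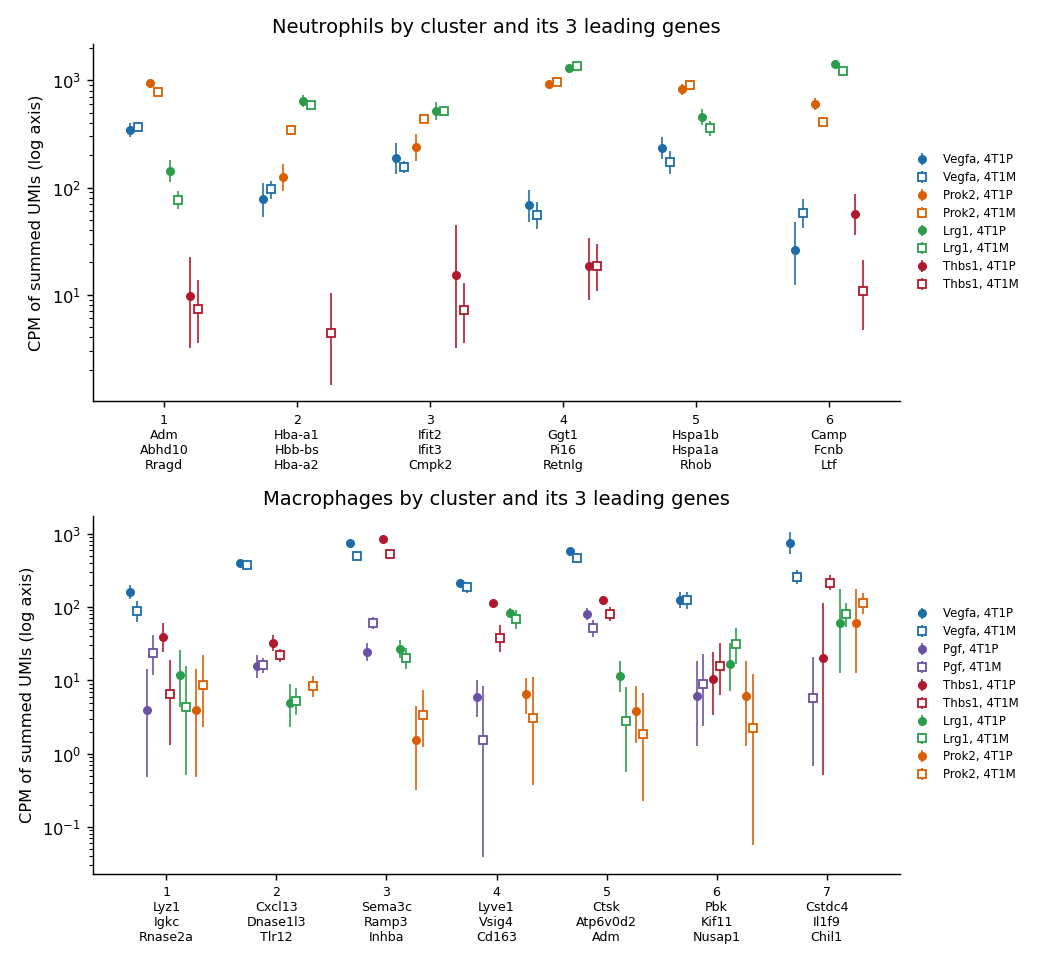
CPM of the summed UMIs of each cluster on a log axis, for neutrophils (top) and macrophages (bottom), in 4T1P (filled circles) and 4T1M (open squares), with 95% Poisson intervals; 6 of the 7 neutrophil clusters are shown, and groups with 0 UMIs of a gene are left out, as is Pgf in neutrophils. Vegfa and Lrg1 run in nearly opposite order over the neutrophil clusters shown, and Thbs1 reaches 854 and 526 CPM in macrophage cluster 3.

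The genes most like each member were those of highest Pearson's r of log2 CPM over the same groups, 12 for neutrophils and 13 for macrophages. They depend on the clustering, since with coarser clusters 1 or 2 of the 5 genes were shared for each neutrophil member and 0 of 5 for each macrophage member. For neutrophil Vegfa they were Klf6 (0.97), the glycolytic enzyme genes Eno1 (0.97) and Tpi1 (0.96), Irs2 (0.95) and Btg3 (0.95). For Lrg1 they were Gmfg (0.96), Pfn1 (0.95), which encodes the actin-binding protein profilin, Hp (0.94), encoding haptoglobin, Pirb (0.94) and Ripor2 (0.94), and for Prok2 Snx13 (0.88), Slc40a1 (0.87), the iron exporter ferroportin, Msrb1 (0.84), Rab14 (0.82) and Sephs2 (0.82). For macrophage Vegfa they were Id2 (0.97), Errfi1 (0.93), Sowahc (0.93), Sgk1 (0.93) and Phlda1 (0.92). Macrophage Thbs1 was most like F10 (0.95), encoding coagulation factor X, Vcan (0.94), encoding versican, Cast (0.92), Stk24 (0.91) and Il13ra1 (0.90). Pgf was most like Arf6 (0.89), Mmp12 (0.86), Il7r (0.85), Trip10 (0.85) and Scaper (0.82), and macrophage Lrg1 like Pde2a (0.82), Ccnd3 (0.82), Fam126a (0.82), Naa25 (0.81) and Rnf141 (0.80).

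Low oxygen induces glycolysis genes and Vegfa alike, so cells of each class and library were ranked and split into 4 bins of equal size by the percent of their UMIs from 41 hypoxia and glycolysis genes, none of them a member. In neutrophils of 4T1P, Vegfa stood at 60.5, 65.9, 190 and 423 CPM from the lowest to the highest bin, and in 4T1M at 51.8, 125, 193 and 400 CPM. The outer bins differed 6.99-fold, a log2 ratio of 2.81 (2.36 to 3.28), and 7.72-fold, 2.95 (2.63 to 3.28). This was the 22nd highest of 1421 genes and the 23rd highest of 2784, of which 19.6% and 16.3% passed 2-fold in this direction. Lrg1 ran the other way, at 1298, 802, 428 and 169 CPM in 4T1P and 1111, 699, 377 and 81.4 CPM in 4T1M. Its log2 ratio of the outer bins was -2.94 (-3.28 to -2.61) and -3.77 (-4.07 to -3.49), the 18th and 21st lowest, where 13.5% and 13.9% of genes passed 2-fold. Prok2 stood at 559, 428, 848 and 879 CPM and at 470, 440, 704 and 739 CPM, with a ratio of 0.65 in both libraries, under 2-fold.

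In macrophages Thbs1 had the widest range along the score, at 35.4, 94.9, 323 and 550 CPM in 4T1P and 26.0, 39.7, 64.3 and 452 CPM in 4T1M. The log2 ratio of the outer bins was 3.96 (3.63 to 4.31) and 4.12 (3.74 to 4.52), the 8th highest of 4970 genes and the 15th highest of 4807, where 4.85% and 5.43% of genes passed 2-fold. Pgf stood at 12.1, 8.03, 28.8 and 53.3 CPM and at 13.0, 10.6, 21.4 and 72.9 CPM, with ratios of 2.14 (1.53 to 2.80) and 2.49 (1.91 to 3.11). Vegfa stood at 180, 347, 595 and 627 CPM and at 202, 365, 430 and 474 CPM, with ratios of 1.80 (1.64 to 1.96) and 1.23 (1.07 to 1.40). Lrg1 did not pass 2-fold in 4T1P, at -0.46 (-0.96 to 0.03), where 7.53% of genes passed it toward lower levels. In 4T1M, where 8.49% did so, Lrg1 was below the minimum of 100 UMIs for the comparison, with 35 and 16 UMIs in the outer bins and a ratio of -0.93 (-1.89 to -0.04). Thus the angiogenic ligands Vegfa and Pgf and the angiostatic Thbs1 were all highest in the same bin of macrophages.

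**Figure D4:**
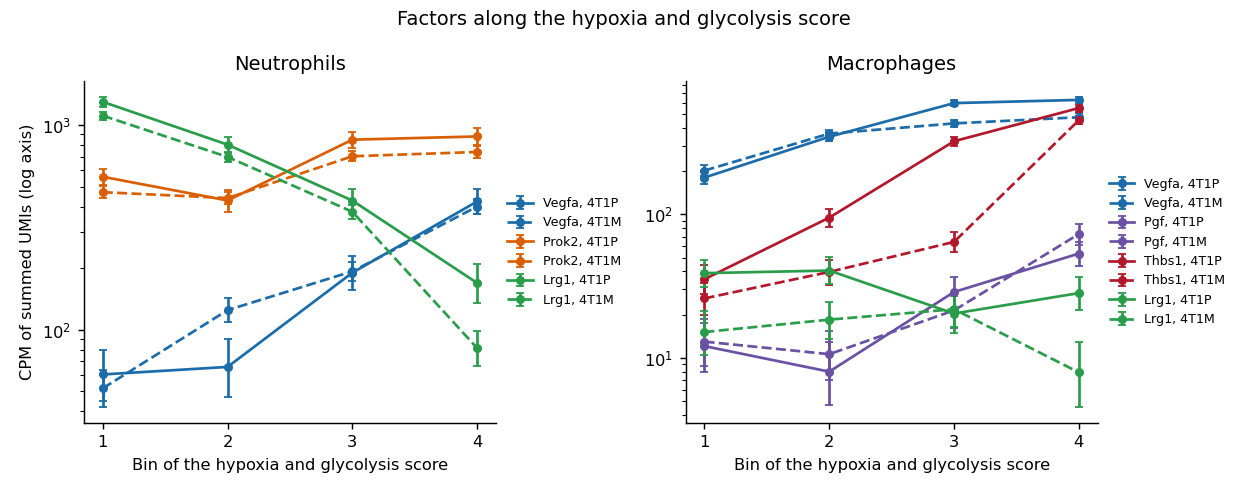
CPM on a log axis in 4 equal bins of cells ranked by the percent of UMIs from 41 hypoxia and glycolysis genes, for neutrophils (left) and macrophages (right), in 4T1P (solid) and 4T1M (dashed), with 95% Poisson intervals. In neutrophils Vegfa goes from 60.5 to 423 CPM and Lrg1 from 1298 to 169 CPM in 4T1P, and in macrophages Thbs1 goes from 35.4 to 550 CPM.

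Median depth did not follow the score closely in neutrophils. It was 3154, 3075, 3178 and 2707 UMIs per cell over the bins of 4T1P and 2986, 3086, 3195 and 2637 over those of 4T1M. Medians do not show a few deep cells, which weigh most in summed levels. Neutrophil cluster 6, with 25 and 56 cells, had median depths of 14834 and 11568 UMIs, and its spread over the bins was not counted. In macrophages the top bin of 4T1M was shallower, at a median of 6899 UMIs against 9185 in the lowest. Ranked by UMIs per cell instead, the outer bins of neutrophils gave Vegfa ratios of -1.16 (-1.59 to -0.72) and -0.31 (-0.57 to -0.03) and Lrg1 ratios of 1.18 (0.91 to 1.46) and 0.97 (0.79 to 1.16), smaller than those along the score. Macrophages of the shallowest bin had little Vegfa, at 137 and 90.0 CPM against 454 and 369 CPM in the deepest. These are log2 ratios of 1.72 (1.27 to 2.21) and 2.03 (1.53 to 2.59), the latter larger than the 1.23 along the score. The depth ratios of Thbs1 were 1.98 (1.20 to 2.89) and 0.55 (-0.19 to 1.41). Those of Pgf were 1.93 (0.05 to 5.00) and -0.10 (-1.21 to 1.26). How far depth enters the ratios along the score was not tested in either class.

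The same opposition appeared in single cells thinned to 1000 UMIs. In 4T1P neutrophils 15 cells had both a Vegfa and an Lrg1 UMI, where the product of the shares gives 29.0, and in 4T1M 42 cells against 70.0. For Prok2 and Lrg1 the counts were 58 against 55.0 and 131 against 126, and for Vegfa and Prok2 27 against 22.4 and 68 against 60.4. In macrophages 38 cells had both Vegfa and Thbs1 against 19.4 in 4T1P, and 17 against 11.6 in 4T1M. Other pairs were met in at most 5 cells per class and library.

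The neutrophil gate itself ran along this gradient. Among retained cells under both macrophage limits, Vegfa went from 359 CPM just inside the gate (1.5 to 2% S100a8 and S100a9) to 113 CPM at 10% and over in 4T1P, and from 332 to 92.4 CPM in 4T1M. Lrg1 went from 305 to 981 CPM and from 124 to 927 CPM over the same bands. Just outside the gate, at 1 to 1.5%, 32 and 126 cells had Prok2 at 214 and 403 CPM and the 8 neutrophil markers at 8786 and 7254 CPM, close to the 7326 and 7700 CPM of the 28 and 99 cells just inside. Below 0.5%, Prok2 stood at 21.3 and 82.4 CPM and the markers at 708 and 1367 CPM.

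**Figure D5:**
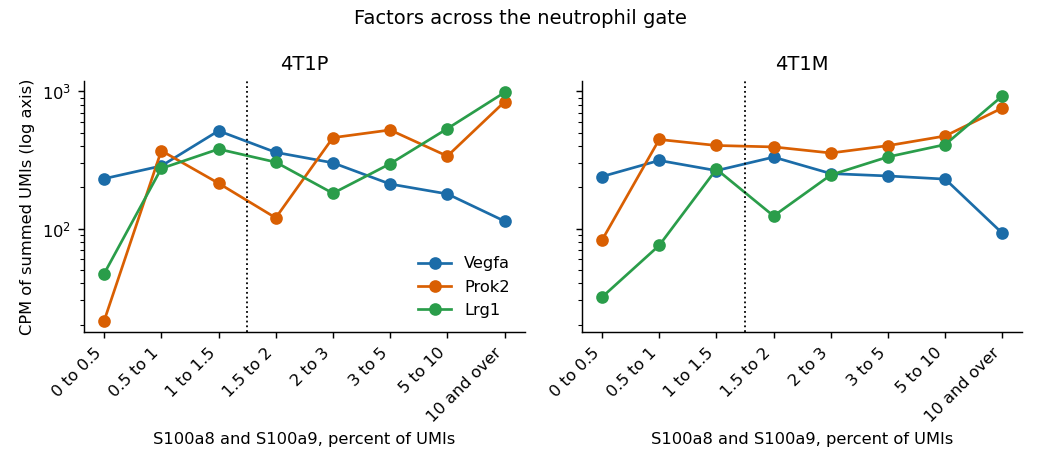
CPM on a log axis of Vegfa, Prok2 and Lrg1 in retained cells under the macrophage limits, in bands of the percent of UMIs from S100a8 and S100a9, for 4T1P (left) and 4T1M (right); the dotted line is the neutrophil gate at 1.5%. Lrg1 reaches 981 and 927 CPM and Vegfa falls to 113 and 92.4 CPM in the highest band.

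Other genes of the pathway were followed in fixed lists. Of 39 further angiogenic factors, 17 had at least 100 UMIs in neutrophils, of which 7 were past 1.5-fold higher in 4T1M and 0 lower, with a median log2 ratio of 0.42 against 0.04 for all genes, of which 7.51% were higher and 1.8% lower. Among them, Areg, encoding the EGF receptor ligand amphiregulin, stood at 47.5 and 119 CPM, its relative Ereg at 21.6 and 41.6 CPM, the chemokine Ccl2 at 97.5 and 189 CPM and Plau, encoding urokinase, at 28.8 and 53.8 CPM. In macrophages 23 were compared, of which 0 were past 1.5-fold higher and 4 lower, with a median of -0.07 against -0.03 for all genes, of which 3.29% were higher and 2.93% lower. These were Ereg at 24.4 and 6.42 CPM, Mmp9 at 55.8 and 16.9 CPM, S1pr1, a receptor for sphingosine 1-phosphate, at 17.5 and 7.17 CPM and Pdgfb at 36.4 and 23.7 CPM. The neutrophil chemokine Cxcl2, which was abundant, stood at 34683 and 46282 CPM in neutrophils and 11593 and 13155 CPM in macrophages.

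Of 18 angiostatic genes beside Thbs1, 4 were compared in neutrophils, where 1 was past 1.5-fold higher, and 7 in macrophages, where 2 were higher and 2 lower. The shares of all genes were the same as above, 7.51% higher and 1.8% lower in neutrophils and 3.29% and 2.93% in macrophages, and the medians of the list were 0.08 and -0.05. The CXCR3 ligand Cxcl10 stood at 117 and 216 CPM in neutrophils and at 330 and 319 CPM in macrophages. In macrophages Pf4, encoding the angiostatic chemokine platelet factor 4, stood at 571 and 236 CPM, a log2 ratio of -1.27 (-1.35 to -1.20), next to the lower Thbs1, and Timp1, a metalloproteinase inhibitor, at 15.9 and 8.24 CPM. The higher ones were Isg15 at 342 and 774 CPM and Il12b, encoding the p40 subunit of IL-12, at 11.4 and 27.0 CPM. The human counterpart of Isg15 is in the paper's interferon-stimulated neutrophil signature. A place in this fixed list does not show an angiostatic role in these cells.

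Of 19 receptors of the 5 factors, 7 were compared in neutrophils, with 1 past 1.5-fold higher, Lrp1, an endocytic receptor of thrombospondin-1, at 7.99 and 17.0 CPM. In macrophages 13 were compared, with 0 higher and 1 lower, the VEGF co-receptor Nrp1 at 68.3 and 44.6 CPM. Of all genes, 7.51% were higher in neutrophils and 2.93% lower in macrophages, and the medians of the list were 0.21 and 0.08. The thrombospondin receptor Cd47 stood at 366 and 407 CPM in neutrophils and 247 and 277 CPM in macrophages. Of the 41 hypoxia and glycolysis genes, 37 were compared in neutrophils and 41 in macrophages, and 0 passed 1.5-fold in either direction, with medians of 0.01 and -0.03. The summed level of that list was 16351 and 16096 CPM in neutrophils and 11762 and 10908 CPM in macrophages.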

How the data were processed

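The libraries were GR1+ cells of 4T1P and 4T1M tumors on the 10x Genomics system. Values deposited are unnormalized UMI counts, 1 matrix per library, which the authors made with Cell Ranger 4.0.0 on mm10 per the labels. Samples were grouped by their titles. Barcodes with under 500 or over 5000 genes or over 10% mitochondrial UMIs were left out, and classes were gated as given in the report. No doublet caller was run; 11 and 53 cells with both marker sets fell in neither class. Counts were summed per class and library (Python 3.11.15, scipy 1.17.1), divided by the class total, and given exact Poisson or binomial intervals. Ratios have exact conditional intervals, run on sums simulated as Poisson counts, the model they assume. That run cannot show how the intervals hold for counts concentrated in few cells. Genes with at least 100 UMIs in a comparison entered its background. Cells were thinned to 1000 UMIs (seed 1) for shares. Clusters used 2000 variable genes, 20 components, 20 neighbours and Leiden resolution 0.6 (leidenalg 0.10.2). For scaling alternatives edgeR 4.0.16 (TMM) and DESeq2 1.42.0 size factors were used, with no count model. Named genes were the 5 members, up to 4 of highest CPM and up to 4 past 1.5-fold per list, a selection of which is given, and the 5 genes nearest in pattern. Levels of different genes were not compared. The members and gene lists were chosen with earlier results of these data known. The kit's strand setting is not given in the sources used here. Neutrophil cluster 7 is not reported here.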

Additional observations from a re-analysis of the deposited data

Results flagged for a closer look

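The ratio between libraries had opposite signs in neutrophils and macrophages for 2 genes, and the difference between the classes was not tested. The Prok2 log2 ratio of 4T1M over 4T1P was -0.19 in neutrophils and 1.49 in macrophages, and the Vegfa ratio 0.13 in neutrophils, with an interval that includes 0, and -0.26 in macrophages.

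Barcodes that the report leaves out, 556 in 4T1P and 521 in 4T1M over the mitochondrial or the gene limit, also held UMIs of all 5 genes, above what a count of 0 allows. In 4T1P and 4T1M they had Vegfa at 225 and 174 CPM, Prok2 at 37.4 and 138 CPM, Pgf at 13.4 and 7.83 CPM, Thbs1 at 96.9 and 53.8 CPM and Lrg1 at 47.3 and 109 CPM.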

How the results depend on the processing

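No paired analysis was possible because each condition is 1 library. Of 85 alternative values of the library ratios 81 kept their sign, as did all 50 of the class ratios and all 13 of the ratios along the hypoxia score tried without its 2 most abundant genes. The exceptions were Vegfa in neutrophils (-0.02) and Pgf in neutrophils (-1.09) without the deepest 5% of cells, and Pgf in macrophages under stricter gates (-0.26) and without macrophage cluster 4 (-0.12). The 1.5-fold mark was lost for Lrg1 in macrophages at 5% mitochondrial UMIs and without cluster 4, and for Thbs1 in neutrophils without the deepest 5% of cells (-0.51) and with the lower gate, and was reached by Pgf in macrophages at 5%. The causes of the following shifts beyond counting error were not tested. With a mitochondrial limit of 5%, library ratios in macrophages were -0.54 for Lrg1, 0.60 for Pgf, -1.05 for Thbs1 and -0.42 for Vegfa, and class ratios 5.07 for Lrg1 in 4T1P, -3.88 and -4.14 for Thbs1 in 4T1M and 4T1P and -1.19 and -1.69 for Vegfa. Without an upper gene limit, Thbs1 and Vegfa in macrophages were at -0.78 and -0.16, and the 4T1P class ratios at 4.88 for Lrg1 and -1.27 for Vegfa. Stricter gates gave library ratios of -0.21 for Lrg1 in neutrophils and -2.75 for Thbs1 and -0.17 for Vegfa in macrophages, class ratios in 4T1M of 5.54 for Lrg1, 6.30 for Prok2, -1.34 for Thbs1 and -1.33 for Vegfa, and -1.60 for Vegfa in 4T1P. Without the deepest 5% of cells, Lrg1 in neutrophils was at -0.21, and class ratios were 4.33 for Lrg1 and -1.26 for Vegfa in 4T1P, -4.99 for Pgf in 4T1M and -4.14 and -4.47 for Thbs1 in 4T1M and 4T1P.

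Alternatives chosen after seeing the data gave -0.0697 for Thbs1 in neutrophils with the gate at 0.5%, 0.88 for Prok2 in macrophages without cluster 7, and -0.26 for Lrg1, -1.09 for Thbs1 and -0.43 for Vegfa in macrophages without cluster 4. TMM and DESeq2 scaling moved ratios by at most 0.05. The numbers of genes past the fold scaled with the gene minimum. At 10 UMIs they were 1426 higher and 992 lower in 4T1M neutrophils, 910 and 979 in macrophages, 1359 and 6152 toward neutrophils and macrophages in 4T1P and 1523 and 6169 in 4T1M, and at 500 UMIs 118 and 13, 109 and 63, 381 and 1373, and 522 and 1436. Lower macrophage genes numbered 157 at 5% mitochondrial UMIs and 532 without the gene limit, and lower neutrophil genes 58 under stricter gates. Thinning to 500 or 2000 UMIs or not at all moved shares with depth. With coarser clusters 0 to 2 of the 5 nearest genes of each member were shared. Members with under 100 UMIs in each library, Pgf and Thbs1 in neutrophils and Prok2 in macrophages, are limited by depth.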
